A study of Mus musculus with 77 samples.

Results

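Polysome-associated RNA drawn from germ cells of the neonatal mouse testis was set against RNA of the whole testis of the same line, over the first 48 h after an injection of retinoic acid (RA). All arrays of the Stra8-cre:RiboTag line labelled 0, 12, 24 and 48 h were taken, which gave 22 of the 77 arrays of the series, and the arrays labelled 4 h were left out. Immunoprecipitated (IP) RNA was on 8 arrays, 2 at each time, and total RNA on 14 arrays, 4 at 0 h, 2 at 12 h, 4 at 24 h and 4 at 48 h. Every animal was FVB/N, carried both the Stra8-cre transgene and the RiboTag allele, and had received WIN,18446 (BDAD), which blocks RA synthesis, for 9 days. Animals of time 0 were then killed, and those of later times were injected with RA. The labels name no array of animals given a vehicle. RA, the injection, age and the time since BDAD therefore cannot be told apart in any change over time. Nothing in the labels ties the arrays of a group to different animals, and p-values here cover only array-to-array spread, which may be technical.

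RiboTag is an allele of Rpl22, a protein of the large ribosomal subunit, that gains an epitope tag where Cre has acted, so that an antibody pulls down ribosomes and the mRNAs they carry from the marked cells alone. Stra8-cre acts in spermatogonia, the germ cells that RA commits to differentiation and later to meiosis. The other cells of a neonatal seminiferous tubule are Sertoli cells, which nurse the germ cells, with peritubular myoid cells around the tubule and Leydig cells, macrophages, vessels and fibroblasts between tubules.

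The values are RMA intensities on a linear scale, and differences are given as IP minus total on the log2 scale with the standard error (SE) of the fit. The correlation across genes was 0.97 to 0.998 between arrays of 1 group and 0.904 to 0.955 between IP and total arrays (genes are not independent replicates). Total replicates 3 and 4 at 24 h stood apart. Their median r with the other total arrays was 0.975 to 0.977, against 0.986 to 0.992 for the other total arrays, and the middle of their signal distribution was the narrowest. Leaving both out changed the count of called genes to 1063 higher and 1451 lower, against 1198 and 1327 with all arrays. The 3 markers named with the comparison then differed by 1.92 for Tex19.1, 1.52 for Sall4 and 1.25 for Ddx4. IP replicates 2 at 0 h and at 24 h stood apart on somatic lists, with a mean log2 level of the Sertoli list of 10.19 and 10.22, against 9.46 to 9.70 on the other IP arrays. Without these 2 arrays 1240 genes were called higher and 1472 lower. All IP arrays had a like spread of signal, with a middle range of 2.99 to 3.13 on the log2 scale, while total arrays fell into 3 classes, from 2.58 to 3.30. With only the 6 total arrays of wide spread, 979 genes were higher and 1634 lower, and with the 6 of middle spread 1189 and 1331.

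The IP arrays were rich in germ cell RNA by all 3 of these markers. Tex19.1, which keeps transposons in check in germ cells, read 1268 and 1224 intensity units on the IP arrays of 0 h, 1551 and 1456 on those of 12 h, 1604 and 1617 on those of 24 h, then 1407 and 1439 on those of 48 h, against 262 to 463 units (median 371) on the 14 total arrays. The lowest IP array was thus well above the highest total array, and the difference was 1.97 ± 0.07 (3.92-fold, limma adjusted p = 2.14e-16). Sall4, a zinc finger factor of spermatogonial stem and progenitor cells, ran from 4949 to 7363 units in IP RNA (median 6095) and from 1607 to 2800 in total RNA (median 1950). Its groups did not overlap either (1.54 ± 0.05, 2.91-fold, limma adjusted p = 9.14e-17). Ddx4, an RNA helicase of the germ granule, lay between 5019 and 5887 units in IP RNA (median 5494) and between 1975 and 2606 in total RNA (median 2204), and was 2.42-fold higher in IP RNA (1.27 ± 0.05, limma adjusted p = 8.75e-16).

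**Figure D1:**
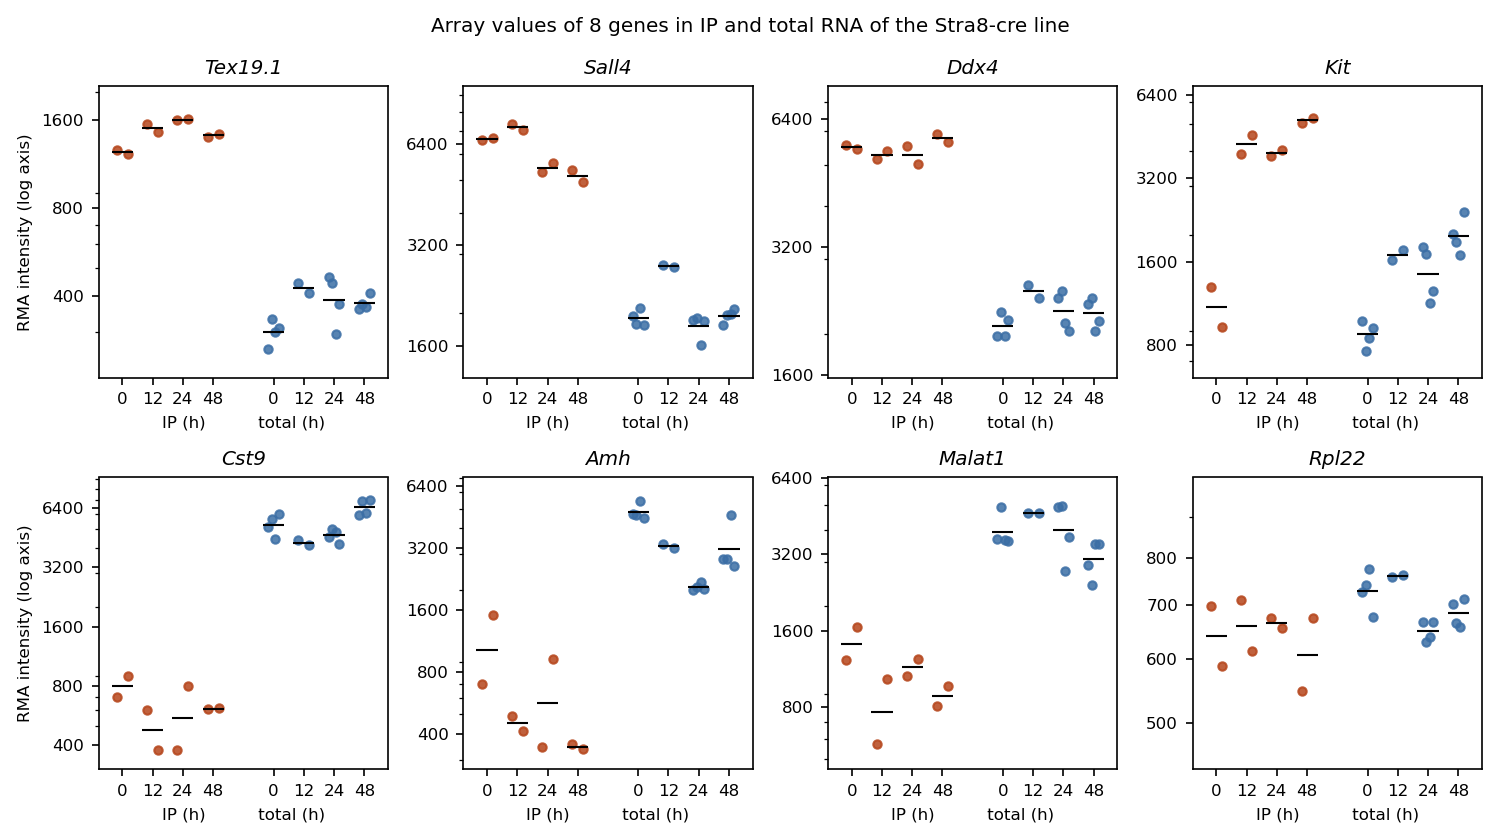
RMA intensity (log axis) of 8 genes on each array, with IP arrays on the left and total arrays on the right of every panel, by time in hours. Points are arrays and bars are means of log2 values. The germ cell markers Tex19.1, Sall4 and Ddx4 are higher on every IP array, Cst9, Amh and Malat1 are lower on every IP array, Kit overlaps, and Rpl22 overlaps throughout.

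Of 19938 genes, 2525 (12.7%) were called, which means an adjusted p under 0.05 and at least a 2-fold difference (log2 of 1). Higher in IP RNA were 1198 genes (6.01%), and 1327 (6.66%) were lower. The sizes were not symmetric: 250 genes were higher by at least 1.5 on the log2 scale and 12 by at least 2, while 514 were lower by at least 1.5, 135 by at least 2 and 18 by at least 2.5. All 1198 and all 1327 had the same sign at each of the 4 times in a fit with a difference per time. Called higher were 6.11% of genes at 0 h, 6.86% at 12 h, 7.50% at 24 h and 4.92% at 48 h, and called lower 6.78%, 7.10%, 5.51% and 8.29%, and 715 genes were higher and 863 lower at every time. The median of all genes was 0.06, and IP and total arrays did not overlap for 18.1% of genes with IP above and 11.6% with IP below. Of all genes, 5.69% were both called higher and free of overlap, and 5.99% both called lower and free of overlap.

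The higher calls were led by X-linked, germ cell and DNA replication genes. Fndc3c1, an X-linked gene, had 556 to 1374 units in IP RNA (median 981) and 112 to 314 in total RNA (median 181). No array overlapped, as was required of the leading genes named in either direction. Symbols that start with Gm, end in Rik or name clones were left out of both rankings. The difference, 2.33 ± 0.12 (5.02-fold, limma adjusted p = 4.31e-14), was the largest of all higher calls. It was followed by Magea5 (2.31 ± 0.20), a MAGE family gene, Nlrp4c (2.19), Crybg1 (2.16), Stk31 (2.12), a Tudor domain protein of germ cells, Ripk4 (2.11), a kinase, and Radx (2.11), which binds single-stranded DNA at replication forks. Tex11, which promotes meiotic crossover formation, Ak8, an adenylate kinase, Orc1, the largest subunit of the origin recognition complex, Tonsl, which repairs stalled forks, and Espl1, the protease separase, were higher by 2.06, 2.04, 2.04, 2.02 and 1.99.

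The lower calls were led by cystatins and included a lysozyme gene. Cst9, a cystatin of Sertoli cells, had 377 to 900.5 units in IP RNA (median 612) and 4135 to 7049 in total RNA (median 5074). It was 8.53-fold lower (-3.09 ± 0.11, limma adjusted p = 2.18e-16), with a gap of several fold between the highest IP and the lowest total array. Cst12, a second cystatin (-2.93), Wfdc6a (-2.88), the interferon-induced membrane protein gene Ifitm3 (-2.86), Tmsb4x, which encodes the actin-binding thymosin beta 4 (-2.83), and Mgst1, a glutathione transferase (-2.83), came next. Rmrp, the RNA of RNase MRP, was lower by -2.83 ± 0.09, and the lysozyme gene Lyz2 by -2.66 ± 0.10. Tmem35a (-2.65), Itm2a (-2.61), Ly96, the co-receptor of TLR4 (-2.61), and the lectin gene Clec12b (-2.59) closed the list. In the Amh-cre line, whose tag marks Sertoli cells, IP minus total was 0.74 for Ly96, 0.69 for Clec12b and -2.55 for Lyz2.

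**Figure D2:**
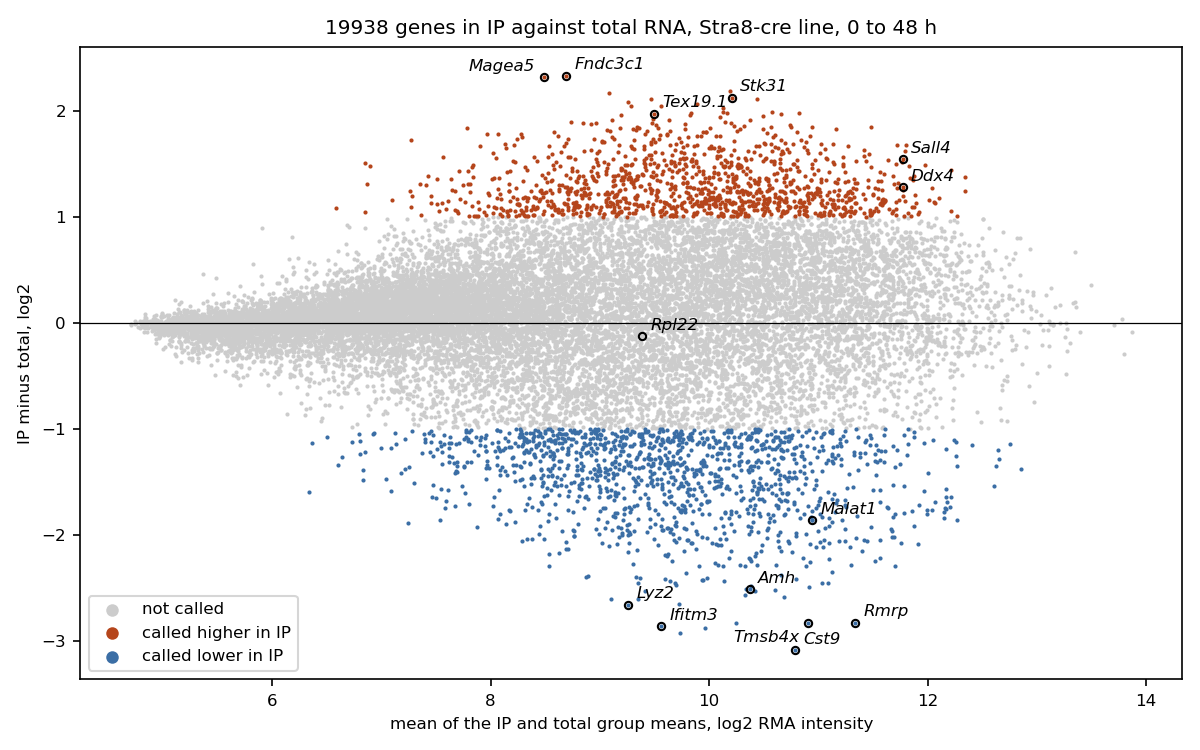
IP minus total on the log2 scale (y axis) against the mean of the group means in log2 RMA intensity (x axis) for 19938 genes, with called genes coloured. Few called genes lie at low intensities, with 26 of 2525 among the 4985 genes of lowest mean level, where most points are near 0. Cst9 is the lowest point at -3.09 and Fndc3c1 and Magea5 the highest at 2.33 and 2.31.

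Most of the piRNA machinery was higher in IP RNA. This pathway makes small RNAs that silence transposons in germ cells. Of its 19 measured genes 16 were called higher and 0 lower, with a median of 1.68. Over all genes 6.01% were called higher and 6.66% lower. The gene lists, here and below, were chosen with earlier results of these data known. Tdrd1, a Tudor scaffold of the germ granule, had 3096 to 4069 units in IP RNA (median 3629) and 620 to 1159 in total RNA (median 936), with no overlap (1.97 ± 0.08, 3.93-fold, limma adjusted p = 1.09e-15). Gpat2, a mitochondrial acyltransferase of the pathway (1.98 ± 0.08), the helicase Tdrd9 (1.94 ± 0.07) and Tdrd5 (1.91 ± 0.09) were beside it. Pld6, Mael and Tdrd6 were not called, at 0.96, 0.64 and 0.57. Members of any list named here as not called were picked for print after their values were seen. Of 20 core germ cell genes, 14 were higher and 0 lower (median 1.54), led by Pramel1 (1.99), Tex19.1, the transcription factor Sohlh2 (1.81) and Tex14, which keeps the bridges between germ cells open (1.77). The 6 others, among them Dazl at 0.89 and Nanos2 at 0.49, were positive and under the 2-fold minimum.

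Genes of undifferentiated and of differentiating spermatogonia were both on the higher side. Of 24 genes of undifferentiated spermatogonia 13 were higher and 0 lower (median 1.08), and of 16 genes of differentiating spermatogonia 11 were higher and 1 lower (median 1.20). Gfra1, the receptor part that binds GDNF on stem spermatogonia, had 2945 to 5235 units in IP RNA (median 3694) and 1392 to 1907 in total RNA (median 1616). Its groups were apart (1.23 ± 0.06, 2.34-fold, limma adjusted p = 4.19e-15). The signalling partner Ret was higher by 1.34, the adhesion protein gene Cdh1 by 1.81, Upp1 by 1.81 and the repressor Zbtb16 by 1.15. On the differentiating side, Sohlh2, Rhox13 (1.75), Sohlh1 (1.68) and the demethylase gene Kdm1b (1.66) led. Stra8, which RA induces, was higher by 1.35 ± 0.16 (limma adjusted p = 5.4e-08), with 268 to 2386 units in IP RNA (median 1187) and 110.5 to 959 in total RNA (median 332), so its groups overlapped. Ddit4l was the exception, lower by -1.55, with 428 to 1483 units in IP RNA and 1100 to 2542 in total RNA.

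Of 22 pluripotency-linked genes 9 were called higher and 0 lower (median 0.84). Pou5f1 (Oct4) ran from 269 to 1042 units in IP RNA (median 630) and from 91.9 to 262 in total RNA (median 166), 3.33-fold higher (1.74 ± 0.14, limma adjusted p = 4.1e-11), with the IP minimum just above the total maximum. Utf1 was higher by 1.65 and Trim71, which represses mRNAs, by 1.44, whereas Sox2 at 0.69, Klf4 at 0.50, Prdm14 at 0.27 and Nanog at -0.13 were not called. Of 27 genes of the germ cell surface 6 were higher and 3 lower (median 0.02): Cdh1, Ret, Gfra1, Epcam (1.21), Mcam (1.18) and Kit (1.11) were higher, and the collagen receptor gene Ddr1 (-1.47), the macrophage growth factor receptor gene Csf1r (-1.38) and Adgra3 (-1.15) were lower.

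Genes that serve meiosis were higher in IP RNA within these 48 h. Of 30 genes of meiotic entry and prophase 16 were higher and 0 lower (median 1.04). Tex11, the cohesin genes Rad21l (1.90) and Smc1b (1.84), and Spata22, which serves recombination (1.70), led, and the axis protein gene Sycp3 was higher by 1.46. The recombination starter Spo11 (0.19), the histone methyltransferase Prdm9 (0.37) and Msh5 (0.36) were not called. Of 25 X-linked testis genes 17 were higher and 4 lower (median 1.37). Tex13b (1.83) came after Fndc3c1, Magea5 and Tex11, and the 4 lower ones were Nr0b1 (-2.46), the Sertoli homeobox gene Rhox8 (-2.29), Nxf3 (-1.70) and Nxt2 (-1.02). Chromosome X held 3.71% of all genes tested, 6.26% of the higher calls (75 genes) and 8.36% of the lower calls (111 genes), a larger share on both sides, given as a description with no test.

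The germ cell fraction also carried more RNA for dividing and copying DNA. Called higher were 20 of 25 DNA replication genes (median 1.36), 18 of 23 mitosis genes (median 1.33) and 16 of 24 DNA repair genes (median 1.14), and 0 members of these 3 lists were lower. Among the subunits of the replication helicase, Mcm3 was higher by 1.69 ± 0.07 and Mcm6 by 1.68 ± 0.06, and so was Lig1, the ligase of lagging strands, by 1.69 ± 0.07. In mitosis, the kinetochore gene Ndc80 (1.85), the spindle checkpoint kinase Ttk (1.83) and Bub1b (1.79) stood behind Espl1. In repair, the Fanconi anaemia partners Fancd2 (1.95) and Fanci (1.91), the mismatch protein Msh6 (1.62) and the recombination factor Rad54l (1.53) were highest. The proliferation marker Mki67 at 0.65 and the clamp Pcna at 0.70 were not called.

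Of 19 genes of the DNA methylation machinery 6 were higher and 3 lower (median 0.27). Uhrf1, which brings the maintenance methyltransferase to replicated DNA, had 2061 to 3181 units in IP RNA (median 2897) and 558 to 1064 in total RNA (median 893), without overlap (1.69 ± 0.09, 3.22-fold, limma adjusted p = 7.53e-14). Hells (1.63), Morc1, which silences transposons (1.54), and the methyltransferase genes Dnmt3b (1.48), Dnmt3l (1.37) and Dnmt1 (1.34) were the other 5. Tet1, which oxidises methylcytosine, had 337 to 692 units in IP RNA (median 429) and 855 to 1490 in total RNA (median 1133), also without overlap (-1.29 ± 0.10, limma adjusted p = 2.74e-11). Tet2 (-1.33) and Apobec1 (-1.18) were lower with it, and Tet3 was at -0.46. Of 28 chromatin regulators of germ cells 10 were higher and 0 lower (median 0.65), among them Kdm1b, Brdt (1.38), L3mbtl2 (1.36) and the Polycomb gene Scml2 (1.32). Of 13 histone genes 3 were higher, H2ac4 (1.40), the testis linker histone H1f6 (1.23) and H2bc1 (1.00), and 2 were lower, H2bc4 (-2.46) and H1f2 (-1.38).

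Almost no ribosomal protein gene was called. Rpl22, the tagged protein, had 547 to 709 units in IP RNA (median 665) and 630 to 776 in total RNA (median 690), and its groups overlapped (-0.13 ± 0.06, limma adjusted p = 0.052). Of 43 cytosolic ribosomal protein genes 1 was higher and 0 lower (median -0.07). That gene was Rpl10l, the autosomal relative of X-linked Rpl10, with 2350 to 3066 units in IP RNA (median 2935) and 639 to 1037 in total RNA (median 805), without overlap (1.84 ± 0.06, 3.58-fold, limma adjusted p = 1.18e-16). Rpl39l, the relative of Rpl39, chosen after its value was seen, was at 1.00 and just missed the 2-fold minimum, and Rpl10 itself was at -0.41. Probes of such near-identical copies may share signal. Of 26 translation factors 3 were higher: Cpeb1, which controls poly(A) tails (1.49), the mRNA-binding Igf2bp1 (1.41) and Eif5b, which joins the subunits (1.16). Respiratory chain genes had 0 calls among 26 (median 0.22). In glycolysis 2 of 19 were higher, Aldoc (1.66) and Pfkp (1.15), and 3 were lower, Ldhb (-2.05), the lactate exporter Slc16a3 (-1.67) and Pfkl (-1.25).

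Many markers of Sertoli, Leydig, myoid, stromal, macrophage and endothelial cells were lower in IP RNA. Of 30 Sertoli cell genes 24 were lower and 1 higher (median -1.79), against 6.66% and 6.01% of all genes. Amh, the Sertoli hormone, read 699 and 1521 units on the IP arrays of 0 h, 490 and 417 on those of 12 h, 345 and 932 on those of 24 h, then 357 and 338 on those of 48 h, against 2011 to 5442 units (median 3029) on the total arrays. All IP arrays were below all total arrays (-2.51 ± 0.18, 5.71-fold lower, limma adjusted p = 7.56e-12), though replicate 2 was the higher IP array at 0 h and at 24 h. Vnn1 (-2.48) and Sox9, the Sertoli fate factor (-1.75), were lower with it. Tuba3a, a testis tubulin gene kept on the Sertoli list, was higher by 1.44, and Dmrt1, which both germ and Sertoli cells use, was at 0.79.

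Of 13 Leydig cell genes 10 were lower and 0 higher (median -1.86). Cyp17a1, an enzyme of androgen synthesis, had 773 to 1999 units in IP RNA (median 1154) and 3204 to 6350 in total RNA (median 4766), apart on every array (-2.06 ± 0.13, 4.16-fold lower, limma adjusted p = 1.32e-12). Cyp11a1, the first enzyme of steroid synthesis, was at -2.42 and Hsd3b1 at -2.01. Of 14 myoid genes 8 were lower (median -1.19), with Myl9 at -2.22 and Acta2 at -1.76. Of 23 stroma genes 16 were lower (median -1.38), with Ogn at -2.28, Dpt at -2.18 and Pdgfra at -1.82. Among 20 macrophage genes 9 were lower (median -0.89), led by Lyz2, with 204 to 305 units in IP RNA (median 237) and 1096 to 2294 in total RNA (median 1488), and the complement genes C1qb (-2.00) and C1qc (-1.75). Of 16 endothelial genes 6 were lower, with Emcn at -2.04 and Cd34 at -1.88, while Erg was higher by 1.23 (median -0.56) and Pecam1, at -0.74, was under the 2-fold minimum. Erythroid genes had 0 calls among 4, and the mast cell and lymphocyte list had 1 of 11, Kit.

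The Sertoli list stayed far above the smallest values of the arrays, 25.2 to 25.9 units. Its mean log2 level was 9.46 to 10.2 on IP arrays (median 9.62) and 11.1 to 11.4 on total arrays (median 11.3). On IP replicates 2 at 0 h and at 24 h the Leydig mean was 8.88 and 8.71, against 8.26 to 8.47 on the other IP arrays, and the stroma mean 9.26 and 9.23, against 8.68 to 8.92. For the core germ cell list the mean was 10.7 to 10.9 on IP arrays (median 10.8) and 9.19 to 9.60 on total arrays (median 9.45). Sertoli genes thus had signal on the IP arrays, and the part of somatic RNA in the differences was not tested. In RNA of mixed cells, fewer cells of a type and less RNA per cell cannot be told apart.

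Of 23 genes of the RA pathway 7 were lower, 1 was higher and 15 were not called (median -0.23). Aldh1a1, which makes RA from retinal, had 1330 to 3805 units in IP RNA (median 1538) and 6818 to 9412 in total RNA (median 7967), without overlap (-2.09 ± 0.12, 4.26-fold lower, limma adjusted p = 1.24e-13). The alcohol dehydrogenase Adh1 (-2.29), the retinal reductase Dhrs3 (-1.63), the retinol receptor Stra6 (-1.62), Adh4 (-1.40), the RA-degrading Cyp26b1 (-1.26) and Dhrs4 (-1.18) completed the lower set. Crabp1, a protein that binds RA in the cytosol, was higher by 1.24, and the receptor genes Rarg at 0.91 and Rara at -0.62 were not called. Immediate early genes had 1 higher call, Egr2 (1.14), and 2 lower calls, Jun (-1.36) and Myc (-1.15), among 16 (median 0.03).

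Several RNAs that are not translated were lower in IP RNA. Malat1, a nuclear long noncoding RNA, had 570 to 1650 units in IP RNA (median 1045) and 2426 to 4946 in total RNA (median 3660), without overlap (-1.87 ± 0.14, 3.65-fold lower, limma adjusted p = 1.63e-11). Of 13 long noncoding RNA genes 4 were lower and 0 higher (median -0.50), the others being Meg3 (-1.44), Gas5 (-1.12) and Airn (-1.06). Rmrp, which works in the nucleolus, had 765 to 1246 units in IP RNA (median 994) and 5018 to 7915 in total RNA (median 6992), 7.11-fold lower (limma adjusted p = 3.99e-17).

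Small nucleolar RNAs (snoRNAs), which guide changes to ribosomal RNA, were counted after their values had been seen. Of 53 on the array 12 were lower and 0 higher, and 50 had a difference under 0 (median -0.64), as had 8478 of all 19938 genes. The class was 0.266% of all genes and 0.904% of the lower calls. The largest were Snora52 (-2.52 ± 0.10) and Snord57 (-2.07 ± 0.14). The telomerase RNA Terc was at -1.86 ± 0.23 and the RNase P RNA Rpph1 at -1.20 ± 0.09, both called. Over all 675 genes annotated as long noncoding RNA the median was 0.02, close to the median of all genes, with 2 higher and 17 lower. These 675 were 3.39% of all genes, 0.167% of the higher calls and 1.28% of the lower calls, so the class held fewer lower calls than its share.

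**Figure D3:**
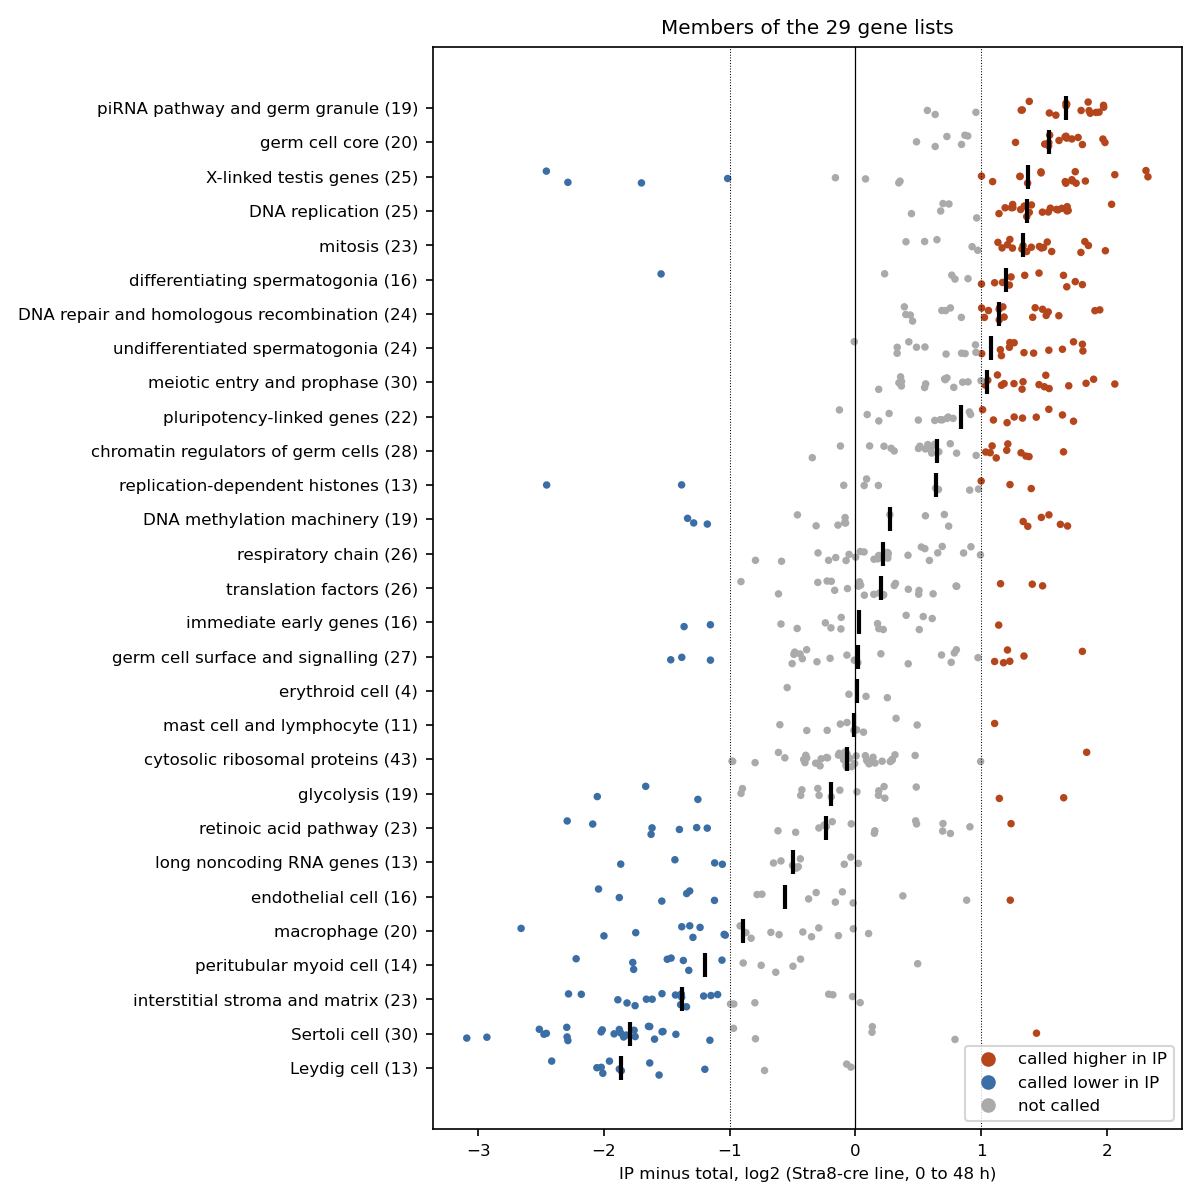
IP minus total on the log2 scale (x axis) for each measured member of 29 gene lists (y axis, with the number of members), ordered by list median (black bars). Coloured points are called genes and dotted lines mark 2-fold. The piRNA list has the highest median at 1.68 and the Leydig list the lowest at -1.86, and ribosomal protein genes centre near 0 with Rpl10l apart at 1.84.

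Promoter sequences of the called genes were compared, since they were on opposite sides of the IP. Windows of 300 bases around each RefSeq transcript start (GRCm38.p6, 250 before and the rest after) were available for 991 of the 1198 higher genes, 1014 of the 1327 lower genes and 15562 of all 19938. CACGTG, the same on both strands, was in 12.7% of the 1214 windows of higher genes, in 5.63% of the 1315 windows of lower genes and in 8.26% of all 19115 windows. GCGGGAA or its complement TTCCCGC was in 12.3%, 5.48% and 6.38%. AGATAA (or TTATCT) was in 6.34%, 8.29% and 9.24%, and TATAAA (or TTTATA) in 6.92%, 10.7% and 11.5%. The median ratio of observed to expected CpG was 0.77, 0.55 and 0.61. The short motifs contain CpG in part, which differs between the sets, and a match is letters in a window, not a bound site.

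The parts upstream of the start of 3 higher genes, picked because they hold CACGTG, and of the most depleted gene are given as examples of the letters, not as evidence for the shares, 5′ to 3′ on the gene's strand, with the 4 searched motifs in capitals.
Tdrd1, chr19:56825959-56826208, plus strand: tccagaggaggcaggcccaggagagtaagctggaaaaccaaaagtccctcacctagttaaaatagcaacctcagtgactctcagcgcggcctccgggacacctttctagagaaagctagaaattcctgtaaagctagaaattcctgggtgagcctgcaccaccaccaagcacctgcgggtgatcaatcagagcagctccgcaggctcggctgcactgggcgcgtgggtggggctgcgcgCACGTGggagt
Stk31, chr6:49395289-49395538, plus strand: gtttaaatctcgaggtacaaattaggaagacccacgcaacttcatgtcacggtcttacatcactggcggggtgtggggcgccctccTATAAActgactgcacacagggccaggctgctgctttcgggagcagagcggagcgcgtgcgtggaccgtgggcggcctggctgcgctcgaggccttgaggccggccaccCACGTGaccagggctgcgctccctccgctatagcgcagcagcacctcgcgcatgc
Ddx4, chr13:112652311-112652560, minus strand: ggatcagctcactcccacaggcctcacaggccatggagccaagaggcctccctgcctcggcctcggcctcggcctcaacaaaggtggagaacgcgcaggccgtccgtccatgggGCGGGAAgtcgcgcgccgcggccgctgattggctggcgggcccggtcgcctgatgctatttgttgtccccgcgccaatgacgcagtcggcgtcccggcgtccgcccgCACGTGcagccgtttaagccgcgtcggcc
Cst9, chr2:148834897-148835146, plus strand: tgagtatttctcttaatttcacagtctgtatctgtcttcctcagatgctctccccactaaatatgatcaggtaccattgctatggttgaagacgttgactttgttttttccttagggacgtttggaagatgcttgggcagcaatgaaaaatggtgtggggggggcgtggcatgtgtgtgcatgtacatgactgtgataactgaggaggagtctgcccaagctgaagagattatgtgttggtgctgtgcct
CACGTG begins 11 bases before the start in Tdrd1, 55 in Stk31 and 29 in Ddx4, where GCGGGAA begins 136 bases before it. Stk31 also has TATAAA at 164 bases. The upstream part of the Cst9 window holds none of the 4. The CpG ratio of the whole window was 0.203 for Cst9, against 0.978 for Ddx4, 0.908 for Stk31 and 0.733 for Tdrd1. Tdrd1 has 3 start windows in the table and Stk31 has 2, of which the first is shown. The upstream part of the third window of Tdrd1 holds none of the 4 motifs, and that whole window has a CpG ratio of 0.216, close to that of Cst9. The sequences are credited to RefSeq.

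Whether the enrichment itself changed over the first 48 h was tested with a moderated F test over IP minus total at 0, 12, 24 and 48 h. Called were 60 genes (0.301%), whose range over the times was at least 2-fold. The range is given as the later minus the earlier of the 2 extreme times, and it was positive for 26 genes (0.130%) and negative for 34 (0.171%). Trf, transferrin, had 1671 and 1564 units in IP RNA at 0 h, 1107 and 921 at 12 h, then 595 and 664 at 24 h and 538 and 754 at 48 h. In total RNA Trf had 637 to 707 units at 0 h, 950 and 799 at 12 h, 651 to 896 at 24 h and 938 to 1175 at 48 h. IP was above total at 0 h and below it at 48 h, with differences of 1.27, 0.21, -0.20 and -0.72 (range -2.00, limma adjusted p = 0.000399).

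Lpar3, a receptor of lysophosphatidic acid, moved alike (1.05, -0.53, -0.52 and -1.00, limma adjusted p = 0.00047), and its total arrays were at 412 to 420 units at 0 h and 710 to 1201 later. Mpzl2 (0.88, -0.62, -0.48 and -0.98) and the peroxisomal transporter Abcd2 (0.26, -1.46, -0.41 and -0.93) also lost IP signal relative to total. Emilin3, a matrix protein, went the other way between 0 and 24 h (-1.15, 0.48, 0.77 and -0.09), as its total arrays were at 1292 to 1657 units at 0 h and 408 to 523 at 12 and 24 h while IP arrays stayed between 563 and 810. Cd63, a tetraspanin of lysosomes and exosomes, had 548 and 741 units in IP RNA at 0 h and 1619 and 1192 at 48 h, against 2457 to 2925 and 1854 to 2144 units in total RNA. Its depletion was -2.06, -2.19, -0.97 and -0.53 (limma adjusted p = 0.000487).

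Kit, the stem cell factor receptor that differentiating spermatogonia gain, was not among the 60. It had 1293 and 930 units in IP RNA at 0 h, against 763 to 976 in total RNA, and 3917 and 4582 in IP RNA at 12 h, against 1617 and 1755 in total RNA. At 24 h IP arrays had 3854 and 4047 units and total arrays 1137 to 1807, and at 48 h 5057 and 5289 against 1691 to 2413. The differences were 0.33, 1.33, 1.45 and 1.38 (limma adjusted p = 0.0539). Over the alternatives this adjusted p ran from 0.00677, without total replicates 3 and 4 at 24 h, to 0.634, without IP replicates 2 at 0 h and at 24 h. Kit was called under 9 of 31 alternatives.

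Stra8 was high in both fractions after time 0. It had 343 and 268 units in IP RNA at 0 h, against 110.5 to 217 in total RNA, and 2073 and 2386 in IP RNA at 12 h, against 707 and 867 in total RNA. Its differences at 0, 12, 24 and 48 h were 0.95, 1.51, 1.44 and 1.54 (limma adjusted p = 0.81). Pou5f1 had differences of 2.26, 1.88, 1.70 and 1.14 (limma adjusted p = 0.256). Of list members, H1f6 (0.80, 1.16, 1.90 and 1.04), the Sertoli list's Trf and Cited1 (Cited1 at -1.68, -1.62, -0.89 and -0.56) and the endothelial Plvap (1.43, 0.34, 0.80 and 0.84) were among the 60, and Plvap and Cited1 were picked for print for that reason. The lists of spermatogonia had 0 calls each. At a share of 0.301% over all genes, lists of this size are too short for 0 calls to show stability. On the undifferentiated list, Dusp6 (range -1.11, limma adjusted p = 0.0504) and Etv5 (range -1.05, limma adjusted p = 0.0558) just missed the threshold and were picked for that. List medians at 0, 12, 24 and 48 h were 1.35, 1.04, 1.10 and 0.83 for undifferentiated spermatogonia. They were 1.10, 1.12, 1.33 and 1.13 for differentiating spermatogonia. Mitosis genes had medians of 1.03, 1.24, 1.65 and 1.39, Sertoli genes of -1.63, -1.71, -1.63 and -2.14, and all genes of 0.06, -0.02, 0.10 and 0.13. Without IP replicate 2 the Sertoli median was -1.95 at 0 h and -2.00 at 24 h, and the Leydig median, -1.61 and -1.57 with both arrays, was -1.89 at either time. Leaving out 1 array gave 22 to 88 called genes, fewest without IP replicate 2 at 0 h, and leaving out total replicates 3 and 4 at 24 h gave 123. Without IP replicates 2 at 0 h and at 24 h it was 19, and Mpzl2 (limma adjusted p = 0.109) and Abcd2 (limma adjusted p = 0.0653) were no longer called, while Lpar3, Trf, Emilin3 and Cd63 were.

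**Figure D4:**
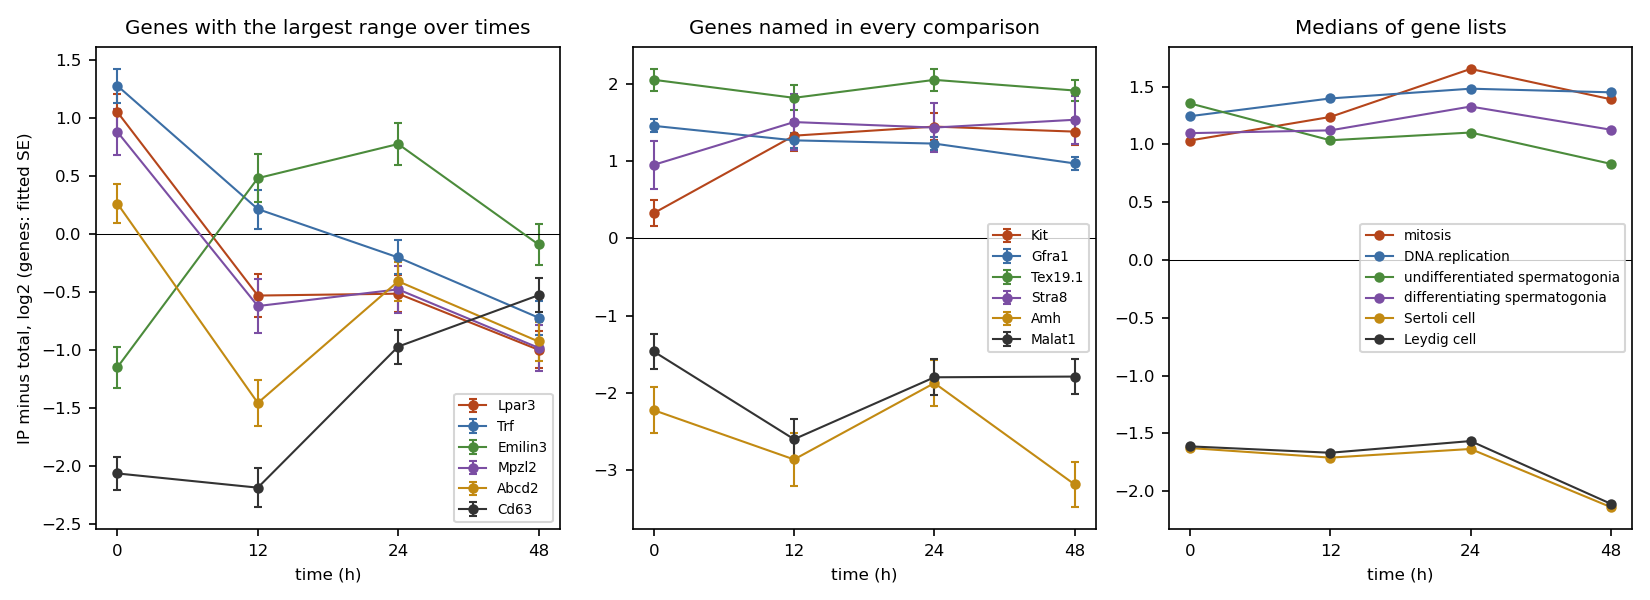
IP minus total on the log2 scale (y axis) at 0, 12, 24 and 48 h (x axis, evenly spaced). The left panel shows the 6 genes with the largest called range and the middle panel 6 other named genes, both with fitted SE, and the right panel medians of 6 gene lists. Trf is at 1.27 at 0 h and -0.72 at 48 h, while the medians of germ cell lists stay above 0.8 and the Sertoli and Leydig medians below -1.5.

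The Amh-cre line, in which the tag marks Sertoli cells, offered the same contrast from the somatic side, in the same strain and at the same times (8 IP and 8 total arrays). The test asked whether IP minus total differed between lines, and values of both lines are from the joint fit with a mean per group. Called were 3870 genes (19.4%), 1833 (9.19%) more positive and 2037 (10.2%) more negative in the Stra8-cre line. Slc25a31, the ADP/ATP carrier of germ cells, was at 1.53 in the Stra8-cre and -2.85 in the Amh-cre line (difference 4.38 ± 0.10, limma adjusted p = 2.58e-24). Stk31 was at 2.12 and -2.23, Asz1, a germ granule gene, at 1.68 and -2.64, and the tubulin gene Tuba3b at 1.50 and -2.79. In the other direction, Wfdc6a was at -2.87 and 1.00 (difference -3.87), Rarres1 at -2.44 and 1.36, Amh at -2.54 and 1.22, and Cst12 at -2.93 and 0.79. Of 20 core germ cell genes 18 were more positive and of 30 Sertoli genes 26 more negative in the Stra8-cre line.

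Stroma and macrophage genes, of cells that neither tag marks, were mostly below 0 in both lines. Stroma genes had a median of -1.38 in the Stra8-cre and -1.48 in the Amh-cre line, with 1 gene called in each direction among 23. Lyz2 was at -2.66 and -2.55 (difference -0.11 ± 0.13, limma adjusted p = 0.505). The myoid gene Acta2 was at -1.78 and -1.64 (difference -0.14 ± 0.12, limma adjusted p = 0.376). Some other members of the myoid and endothelial lists differed between lines, and whether their RNA came from those cells was not tested. The myoid Myl9 was at -2.22 and -1.06 (difference -1.15, limma adjusted p = 7.64e-11), the endothelial Sox18 at -1.35 and 0.57 (difference -1.92, limma adjusted p = 1.43e-17) and the endothelial Erg at 1.22 and -1.66 (difference 2.88, limma adjusted p = 1.33e-20). Of 16 endothelial genes 3 were more positive and 1 more negative in the Stra8-cre line. Some named RNAs that are not translated were low in both lines. Malat1 was at -1.91 and -1.72 (difference -0.19 ± 0.17, limma adjusted p = 0.36), Rmrp at -2.83 and -2.93 (0.10 ± 0.18, limma adjusted p = 0.669) and Gas5 at -1.11 and -1.13. Of the 53 snoRNAs 0 were called for the difference, against 19.4% of all genes. Their median was -0.64 in the Stra8-cre and -0.86 in the Amh-cre line. Snora52 (difference 0.72 ± 0.22, limma adjusted p = 0.00473) and Snord57 (0.59 ± 0.21, limma adjusted p = 0.0194) missed only the 2-fold minimum. The 675 long noncoding RNAs had medians of 0.02 and 0.08, near those of all genes (0.06 and 0.10). A difference that misses the threshold does not show equal depletion.

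**Figure D5:**
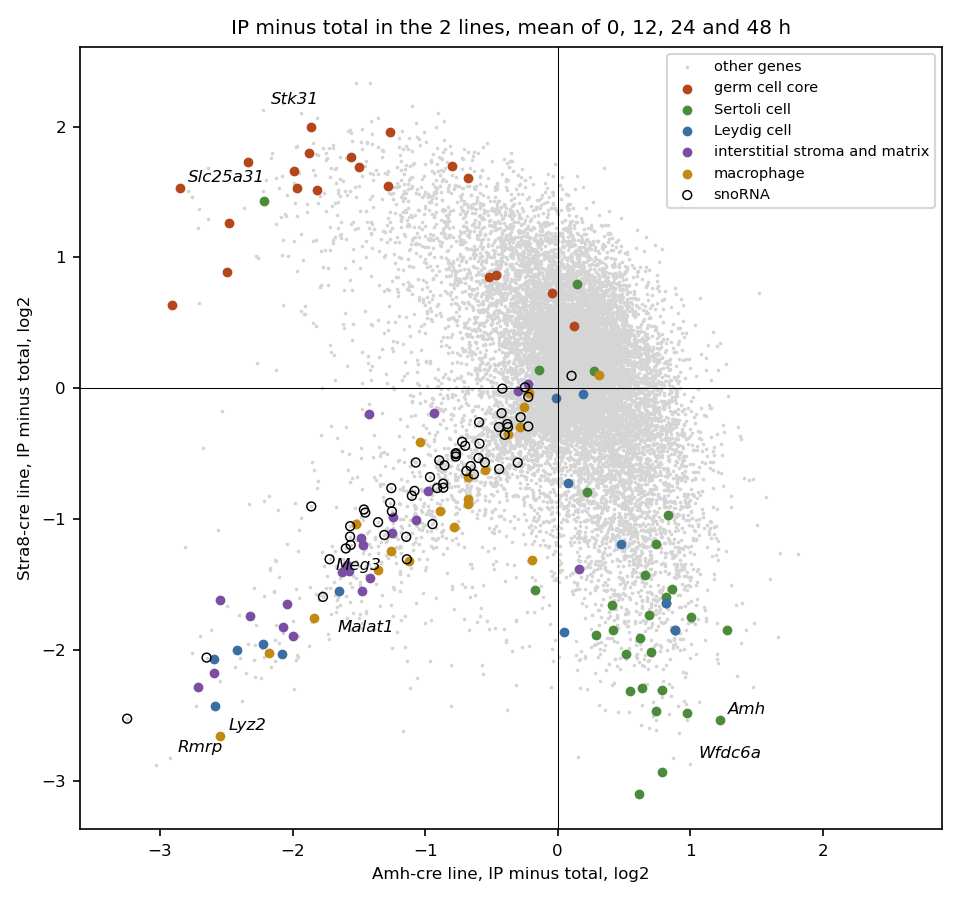
IP minus total on the log2 scale in the Stra8-cre line (y axis) against the Amh-cre line (x axis), both as means of 0, 12, 24 and 48 h, with members of 5 gene lists coloured and snoRNAs as open circles. Most core germ cell genes lie at upper left, most Sertoli genes at lower right, and most stroma, macrophage and snoRNA genes at lower left, with Rmrp at -2.83 in the Stra8-cre and -2.93 in the Amh-cre line.

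The Ngn3-cre line also tags germ cells, and at time 0 it could be set against the Stra8-cre line (2 IP and 2 total arrays). These animals were C57BL/6, so line and strain cannot be told apart. Called were 16 genes (0.0802%), 15 (0.0752%) more positive and 1 (0.00502%) more negative in the Stra8-cre line, and 3 of the 15, Gfra1, Etv5 and Dusp6, are on the list of 24 genes of undifferentiated spermatogonia. Gfra1 was at 1.46 in the Stra8-cre and -0.20 in the Ngn3-cre line (difference 1.65 ± 0.15, limma adjusted p = 8.4e-07), and the transcription factor Etv5 at 1.39 and -0.53 (1.92 ± 0.21, limma adjusted p = 3.16e-05). Egr2 was at 1.55 and -0.31, Cd109 at 1.38 and -0.47, and the ERK phosphatase gene Dusp6 at 0.85 and -0.91. Hic1 was the 1 negative call (-1.07 and 0.43, limma adjusted p = 0.0188), and it was lost when any of 5 single arrays was left out (adjusted p 0.0558 to 0.14). The count of 16 became 9 without Stra8-cre IP replicate 2, 10 without Ngn3-cre total replicate 2 and 25 without Ngn3-cre IP replicate 2. Tex19.1 was at 2.05 and 1.95 (difference 0.11 ± 0.20), Sall4 at 1.78 and 1.47 (0.31 ± 0.12) and Ddx4 at 1.40 and 1.09 (0.31 ± 0.13), none of them called. With so few Ngn3-cre arrays, a difference that misses the threshold does not show equal enrichment. Kit was at 0.33 and 1.18 (difference -0.85 ± 0.30, limma adjusted p = 0.733).

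Against 4, 6 and 8 days of the same line (6 IP and 6 total arrays), IP minus total at 0 to 48 h differed for 79 genes (0.396%), 34 (0.171%) more positive and 45 (0.226%) more negative early. With each array centred on its median the split was 26 and 62. Car7, a carbonic anhydrase, was at 0.41 early and -1.53 late (difference 1.93 ± 0.17, limma adjusted p = 8.43e-09), Tsx, an X-linked testis gene, at -0.69 and -2.35, Dmrtc1b at 0.27 and -1.38 and Bbox1, an enzyme of carnitine synthesis, at -0.03 and -1.60. Called as more enriched early were the meiotic genes Tex11 (2.06 and 1.03), Sycp3 (1.47 and 0.24) and Hormad1 (1.32 and 0.25). So was the stem cell gene Utf1 (1.64 and 0.39). Sycp3 and Hormad1 were chosen after their values were seen, as the called members of their list. The germ cell markers Tex19.1 (1.96 and 1.56), Sall4 (1.53 and 1.37) and Ddx4 (1.26 and 0.69) were not called. Ddx4 (difference 0.57 ± 0.08, limma adjusted p = 2.22e-05) and Tex19.1 (0.40 ± 0.11, limma adjusted p = 0.00934) missed only the 2-fold minimum. For Sall4 the difference was 0.16 ± 0.08 (limma adjusted p = 0.199). Without the 2-fold minimum, 2530 genes were more positive early and 1461 more negative, so a more positive early difference was not particular to the genes named. These counts include genes that were more depleted late, such as Tsx and Bbox1, and do not measure enrichment alone. More depleted early were Cd63 (-1.44 and 0.20), the sarcoglycan gene Sgcb (-1.98 and -0.40, difference -1.58), Greb1l (-1.00 and 0.45) and Emc7, a subunit of the ER membrane complex (-1.61 and -0.20).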

How the data were processed

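1-colour arrays measured RNA of whole testes and of RiboTag IPs. The authors deposited 1 table of intensity values per probe set, made with RMA per the submitters' processing notes; its version and settings are not stated in the labels or headers. Signal spread still differed between total arrays, and whether all arrays were normalized together is not stated. A difference is relative to the other genes of an array. Log2 was taken. Of 28853 probe sets, 21789 named 1 gene in the platform annotation, 1621 several and 5443 were unlisted; 99.58% of those with a gene matched RefSeq by gene number. The probe set with the highest mean stood for a gene, which left 19938. limma 3.58.1 in R 4.3.3 (lmFit, eBayes with trend) fitted fraction plus time for IP against total, and group means with contrasts for the other comparisons. Contrasts were tested two-sided and times by an F test, with Benjamini-Hochberg adjustment over all genes, and each fit was tested on simulated data first. How many arrays a group had sets the precision. Median intensities per array were 281.7 to 300.5.

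Members and gene lists were chosen with earlier results of these data known. Named were the 12 called genes without overlap of largest difference in each direction (no clone names), up to 4 called members per list in the direction of its median and up to 2 against it, the 6 of largest range over times, 4 in each direction of the other comparisons, and 18 markers. Replicate numbers did not pair IP with total arrays: correlations of their deviations were -0.27, 0.14, -0.17 and 0.23 at 0, 12, 24 and 48 h. Alternatives were centring, quantile normalization, filters, probe-set means, all arrays, a replicate block, single times and leaving arrays out. Leaving out total replicates 3 and 4 at 24 h, leaving out IP replicates 2 at 0 and 24 h, and splitting total arrays by signal range were chosen after seeing the data.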

Additional observations from a re-analysis of the deposited data

Results flagged for a closer look

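In 3 groups of total RNA (0, 24 and 48 h) single arrays lay far from the other 3, measured as the gap to the nearest array over the whole range of log2 values. Chance gives about 1 in 20 such groups, and 11 of 153 (22 genes and 29 list means) were past the critical value. By gene, the ratio was 0.875 for Sall4 at 24 h (replicate 3 at 10.65, the others 10.89 to 10.92), 0.864 for Amh at 48 h (replicate 3 at 12.19, the others 11.37 to 11.48), 0.932 for Malat1 at 0 h (replicate 2 at 12.26, the others 11.82 to 11.85) and 0.902 for Rmrp at 0 h (replicate 2 at 12.29, the others 12.77 to 12.82). By list mean, replicate 3 at 0 h stood apart for X-linked testis genes (0.933), meiotic genes (0.92), RA pathway genes (0.905) and histones (0.855). At 48 h, replicate 1 stood apart for the RA pathway (0.86) and Sertoli genes (0.837, replicate 1 at 11.36, the others 11.39 to 11.4). Replicate 4 stood apart for myoid genes (0.89, replicate 4 at 10.07, the others 9.993 to 10). A high ratio can thus come from a small gap where the other arrays lie close together.

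IP minus total differed between times for 60 genes by the moderated F test, with ranges of -2.05 for Lpar3, -2.00 for Trf, 1.92 for Emilin3 and 1.66 for Cd63. Between the Stra8-cre and the Amh-cre line it differed for 3870 genes by limma's interaction contrast, among them Slc25a31 (4.38), Stk31 (4.35), Wfdc6a (-3.87) and Amh (-3.76). Between the Stra8-cre and the Ngn3-cre line at time 0 it differed for 16 genes, among them Etv5 (1.92), Egr2 (1.86), Gfra1 (1.65) and Hic1 (-1.50). Between 0 to 48 h and 4 to 8 days it differed for 79 genes, among them Car7 (1.93), Tsx (1.66) and Sgcb (-1.58).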

How the results depend on the processing

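No called gene that is named changed sign under the alternatives run, but the balance of higher and lower calls turned. Without a fold minimum, calls numbered 12811 for IP against total (7705 higher, 5106 lower), 155 between times, 11156 against the Amh-cre line (5698 and 5458), 25 against the Ngn3-cre line and 3991 against 4 to 8 days (2530 and 1461), where the 2-fold minimum gave 1198 and 1327, 1833 and 2037, and 34 and 45. IP against total also had more higher than lower calls at 24 h alone (1496 and 1099) and without 48 h (1297 and 1225). With the replicate number as a replicate block, calls numbered 2521, 92, 3891, 31 and 84, against 2525, 60, 3870, 16 and 79. The block matched only total replicates 1 and 2 to an IP array. The count between times was 109 with all 77 arrays and 123 without total replicates 3 and 4 at 24 h, where the count against Ngn3-cre was 25. Without IP replicates 2 at 0 h and 24 h they were 19 and 9, and IP against total had 2712. Leaving out 1 array gave 2435 to 2625, 22 to 88, 3821 to 3928, 9 to 25 and 69 to 99 calls. The count between times was 22 without IP replicate 2 at 0 h, 33 without either total array at 12 h, and 37 and 38 without an IP array at 48 h. The cause of these changes was not tested.

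The count for IP against total ranged from 2482 with quantile normalization to 2784 at 12 h alone among the other alternatives. With total arrays of wide signal range it was 979 higher and 1634 lower, and with those of middle range 1189 and 1331. Of values of named genes under alternatives, 5503 kept direction and call for IP against total, 42 lost the call and 2 gained it. H2bc1 lost it under 20 alternatives. Differences closed in on 0 at the lowest intensities, where a change could not be resolved.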
